A study of Homo sapiens with 6 samples.

Results

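The A-498 arm of a ZNF395 knockdown experiment comprises 3 of the 6 RNA libraries in the series, chosen by their line and construct labels: ZNF395 hairpin 1, ZNF395 hairpin 3 and a non-targeting control hairpin, with 1 library each. A-498 is an established human clear cell renal cell carcinoma line, and the other 3 libraries hold the same constructs in a second such line, 786-O. Every culture, control included, had taken up a retroviral short hairpin vector and had been selected with puromycin for 3 days. The knockdown cultures differed from the control in the hairpin they expressed, and the comparison asks how the transcriptome of A-498 differs when ZNF395 is depleted. No construct had a repeat culture in either line, so no spread between cultures of 1 construct was measured. The p-values of the main test rest on the spread between the hairpins.

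The libraries held 77534125 counts with hairpin 1, 93634021 with hairpin 3 and 99147218 in the control. Genes encoded in mitochondrial DNA took 7.02% of counts with hairpin 1, 7.37% with hairpin 3 and 8.21% in the control. PAX8, a kidney lineage transcription factor that marks renal carcinoma, stood at 185 and 191 CPM (counts scaled to a common library size by TMM) with hairpins 1 and 3 and at 256 CPM in the control. CA9, the hypoxia-induced carbonic anhydrase that usually marks clear cell tumours, was low in all 3 libraries, at 0.399, 1.68 and 1.17 CPM. The endothelial cadherin CDH5 had 1 to 2 counts per library and the leukocyte antigen PTPRC 6 to 9, but other markers in those lists had more. The endothelial marker TEK had 172 counts with hairpin 1 and 144 with hairpin 3, against 160 in the control. The immune marker ITGAM had 191 and 483, against 234. The 9 fibroblast markers summed to 3715 and 2505 counts, against 4015, with COL1A1 at 3266 and 1810, against 3203. The 9 endothelial markers in the table summed to 351 counts with hairpin 1 and 277 with hairpin 3, against 255 in the control, and the 10 immune markers to 300 and 551, against 345. The 5 endothelial markers that passed the expression filter summed to 4.19 and 2.62 CPM, against 2.44 CPM, and the 4 immune markers to 3.41 and 5.39 CPM, against 3.02 CPM.

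ZNF395, also known as papillomavirus binding factor, is a zinc finger protein that binds DNA and has been linked to transcription under hypoxia and to innate immune signalling. Type I interferons such as interferon beta are secreted by cells that sense foreign or displaced nucleic acid. They act through JAK kinases and STAT factors on a large set of interferon-stimulated genes, many of which share a short promoter element bound by interferon regulatory factors.

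ZNF395 itself stood at 14.5 CPM with hairpin 1 and 14.3 CPM with hairpin 3, against 67.9 CPM in the control. The share of the control level that remained had a 95% counting interval of 20.1 to 22.8% around 21.4% with hairpin 1, and of 19.8 to 22.3% around 21.02% with hairpin 3. Both knockdown libraries were low and they lay close together, and these intervals cover counting error only. In edgeR's quasi-likelihood test on 20144 genes the log2 fold change was -2.24 (SE 0.381), and its adjusted p was 1. With the hairpin as a term in the model the adjusted p was 0.0303 at -2.22. In 786-O, hairpin 1 gave a log2 ratio of -1.96 to that line's control and hairpin 3 gave -2.84. ZNF395 overlaps FBXO16 on the same strand, so reads of the pair may not be separable.

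No gene passed edgeR's adjusted p of 0.05 for the A-498 knockdown over its control, either higher (0% of 20144 genes) or lower (0%), and the smallest adjusted p was 1. At an unadjusted p under 0.05 there were 348 genes (1.73%), of which 183 had a positive and 165 a negative fold change. DESeq2 on the same counts called 15 higher and 8 lower, and limma-voom called 0. Of the 8 lower DESeq2 calls, 2 were under 1 CPM in every A-498 library, GSTP1 among them. With the hairpin as a term, which leaves 1 residual degree of freedom, edgeR called 9 higher and 2 lower. Those 9 were IFI44L, IFI6, IRF7, MX1, OAS1, OAS2, CMPK2, RSAD2 and IFIT1, all of them in the interferon-stimulated list, and ZNF395 was among the lower ones, with adjusted p-values between 0.0271 and 0.0311. The p-values with the hairpin as a term rest on how far the difference between the hairpins disagreed between the lines. Since the main test called nothing, differences below are given as the values of each library and both ratios to the control.

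Among 14163 genes with at least 1 CPM in an A-498 library, 89 (0.628%) were at least 2-fold higher with both hairpins and 52 (0.367%) at least 2-fold lower with both. Each hairpin alone passed that fold far more often. Hairpin 1 had 321 genes higher (2.27%) and 260 lower (1.84%), and hairpin 3 had 396 higher (2.80%) and 712 lower (5.03%). The 2 ratios share the control library, so an unusual value in that library moves both of them the same way. A further 25 genes were 2-fold higher with hairpin 1 and 2-fold lower with hairpin 3, and 19 showed the reverse. Of the genes that were 2-fold with both, 67 of the 89 and 41 of the 52 had an unadjusted p under 0.05 in edgeR. Those p-values use the libraries that chose the genes and partly follow from that choice, so they are not separate support. The genes just inside the 2-fold limit were UCP2, with log2 ratios of -1.106 and -1.004, and TNFSF10, with 1.37 and 1.01. LXN, with -1.10 and -0.9993, lay just outside it.

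**Figure D1:**
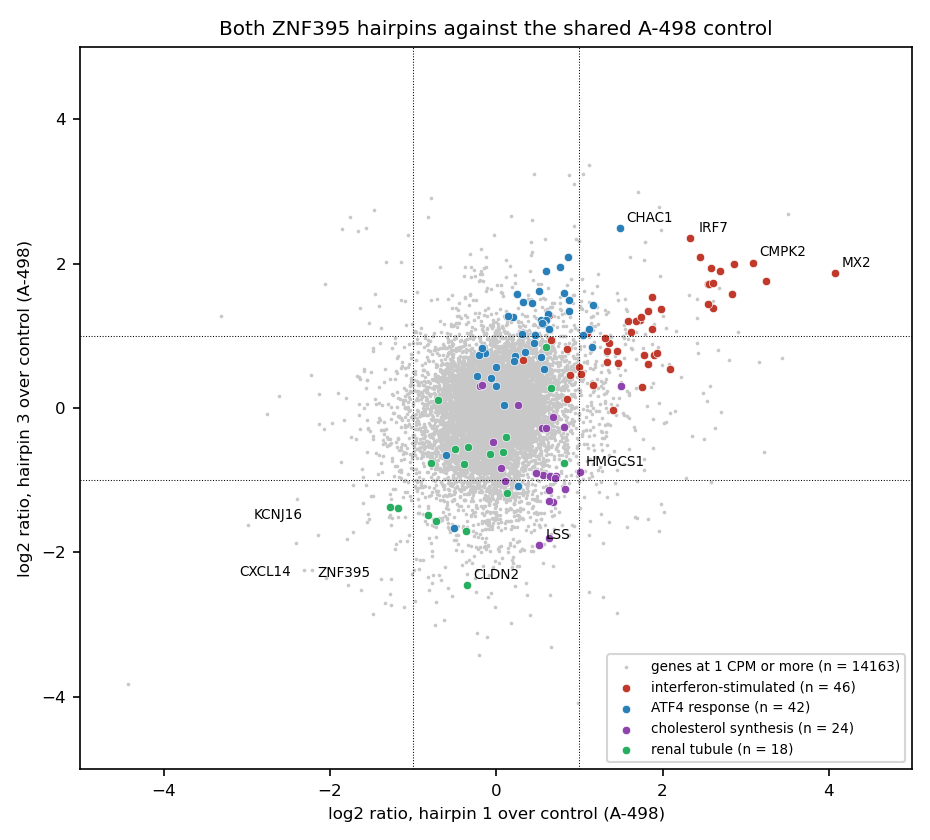
Log2 ratios of hairpin 1 (horizontal axis) and hairpin 3 (vertical axis) to the A-498 control for 14163 genes, with members of 4 gene lists in colour and dotted lines at 2-fold. Interferon-stimulated genes lie in the upper right, and cholesterol synthesis genes lie mostly to the right of 0 with hairpin 1 and below 0 with hairpin 3.

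The promoters of IFI44L and IFI6 are shown, of 5 read for list members with large ratios, because they hold an element found in other higher genes. CMPK2, MX1 and OAS1 hold 0 copies of the spelling searched for in the same window. OAS1 does hold gaaacgaaa there, with fewer bases between the GAAA runs, which that spelling misses. The capitals mark each core of the interferon-stimulated response element, spelled GAAA, then any 2 bases, then GAAA. Both stretches are the 120 bases before the annotated start, read 5′ to 3′ on the strand of the gene, from RefSeq on GRCh38.p14: IFI44L at chr1:78620328-78620447 on the plus strand, and IFI6 at chr1:27672193-27672312 on the minus strand.
IFI44L: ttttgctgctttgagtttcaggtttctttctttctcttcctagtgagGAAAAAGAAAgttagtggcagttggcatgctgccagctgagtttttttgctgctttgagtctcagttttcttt
IFI6: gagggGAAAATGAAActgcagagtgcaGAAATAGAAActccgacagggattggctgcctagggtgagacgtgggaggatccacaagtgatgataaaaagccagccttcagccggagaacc
The core begins 73 bases before the start in IFI44L, and IFI6 holds it at 115 and at 93 bases before the start. Over the window from 250 bases before to 50 after the start, searched on both strands, the core was present in 3.65% of 27305 promoters. It was present in 15 of the 58 matched promoters of genes that were 2-fold higher with both hairpins (25.9%), and in 0 of the 38 matched promoters of genes that were 2-fold lower with both. Within the higher genes it was in 13 of 20 matched members of the interferon-stimulated list (65%) and in 2 of 38 matched genes outside it (5.26%). The whole list, whatever its ratios, had it in 24 of 37 matched promoters (64.9%). The core thus did not set the higher members apart from the rest of the list. The NF-kB motif, spelled GGG, any 2 bases and TTTCC, was in 3 of the 58 (5.17%), beside 1.92% of all promoters. A match describes letters in a window and says nothing of binding.

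Of the 27 lists examined, the interferon-stimulated genes had the most members that were 2-fold higher with both hairpins. Of the 47 in the list, 47 had a positive ratio with hairpin 1 and 45 with hairpin 3, beside 9721 and 9788 of all 20144 genes tested. At least 2-fold higher with both were 24 of the 47, beside 0.628% of all genes, and none was 2-fold lower with both. The median log2 ratio over the list was 1.76 with hairpin 1 and 1.05 with hairpin 3, beside -0.01 for all genes with each hairpin. Their CPM summed to 13030 with hairpin 1 and 8319 with hairpin 3, against 4129 in the control. edgeR called 0 of them, and 35 had an unadjusted p under 0.05, beside 1.73% of all genes tested. The list was chosen with earlier results of these data known, and its members share the control library. Those 35 are therefore not separate pieces of support.

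IRF7, the regulatory factor that amplifies type I interferon, stood at 65.1 CPM with hairpin 1 and 66.1 CPM with hairpin 3, against 12.9 CPM in the control. Its ratios were 5.05-fold (counting interval 4.75 to 5.37) and 5.12-fold (4.82 to 5.44), the most even pair among the 12 leading higher genes. IFI44L, a gene of unsettled function that rises with interferon, reached 601 and 469 CPM, against 110 CPM. In both genes the hairpin libraries lay well apart from the control and closer to each other.

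MX1, the dynamin-like GTPase that blocks influenza virus, stood at 879 CPM with hairpin 1 and 485 CPM with hairpin 3, against 121 CPM in the control. Its relative MX2, which restricts HIV, stood at 12.6 and 2.70 CPM, against 0.722 CPM, the widest gap between hairpins among those 12 (17.4-fold and 3.73-fold). IFI6, an interferon-induced mitochondrial and endoplasmic reticulum protein, stood at 243 and 156 CPM, against 40.6 CPM. In all 3 genes the order was hairpin 1, then hairpin 3, then the control.

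The oligoadenylate synthetases make the messenger that activates RNase L on double-stranded RNA. OAS1 stood at 274 CPM with hairpin 1 and 158 CPM with hairpin 3, against 42.4 CPM in the control. OAS2 stood at 588 and 274 CPM, against 101 CPM. OAS3 stood at 846 and 476 CPM, against 144 CPM. The 3 synthetases thus kept the same order of libraries. CMPK2, a mitochondrial nucleotide kinase, stood at 49.6 and 23.5 CPM, against 5.81 CPM, and RSAD2, which encodes the antiviral enzyme viperin, at 83.6 and 46.4 CPM, against 14.2 CPM. CMPK2 and RSAD2 overlap on opposite strands, so their counts are separable only if strand was used in counting.

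ISG15, a ubiquitin-like modifier, stood at 163 CPM with hairpin 1 and 130 CPM with hairpin 3, against 44.7 CPM in the control. USP18, the protease that removes ISG15 and restrains interferon receptor signalling, stood at 115 and 48.1 CPM, against 16.2 CPM. EPSTI1, an interferon-responsive gene first described in breast epithelium, stood at 68.7 and 37.5 CPM, against 11.3 CPM. IFITM1, a membrane protein that hinders virus entry, stood at 11.7 and 4.18 CPM, against 1.21 CPM, and it has close copies with which reads may be shared. Hairpin 1 was above hairpin 3 in 43 of the 47 list members, against 50.6% of all genes tested.

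The list members that stood lowest with hairpin 3 were chosen for mention after their values were seen. The 2 negative ones were IFITM2, which was below 1 CPM in every library, and OASL. OASL, an inactive relative of the synthetases, stood at 417 CPM with hairpin 1 and 154 CPM with hairpin 3, against 157 CPM in the control. SAMD9, an antiviral factor, stood at 510 and 184 CPM, against 151 CPM. OASL with hairpin 3 thus lay close to the control, and SAMD9 somewhat above it.

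**Figure D2:**
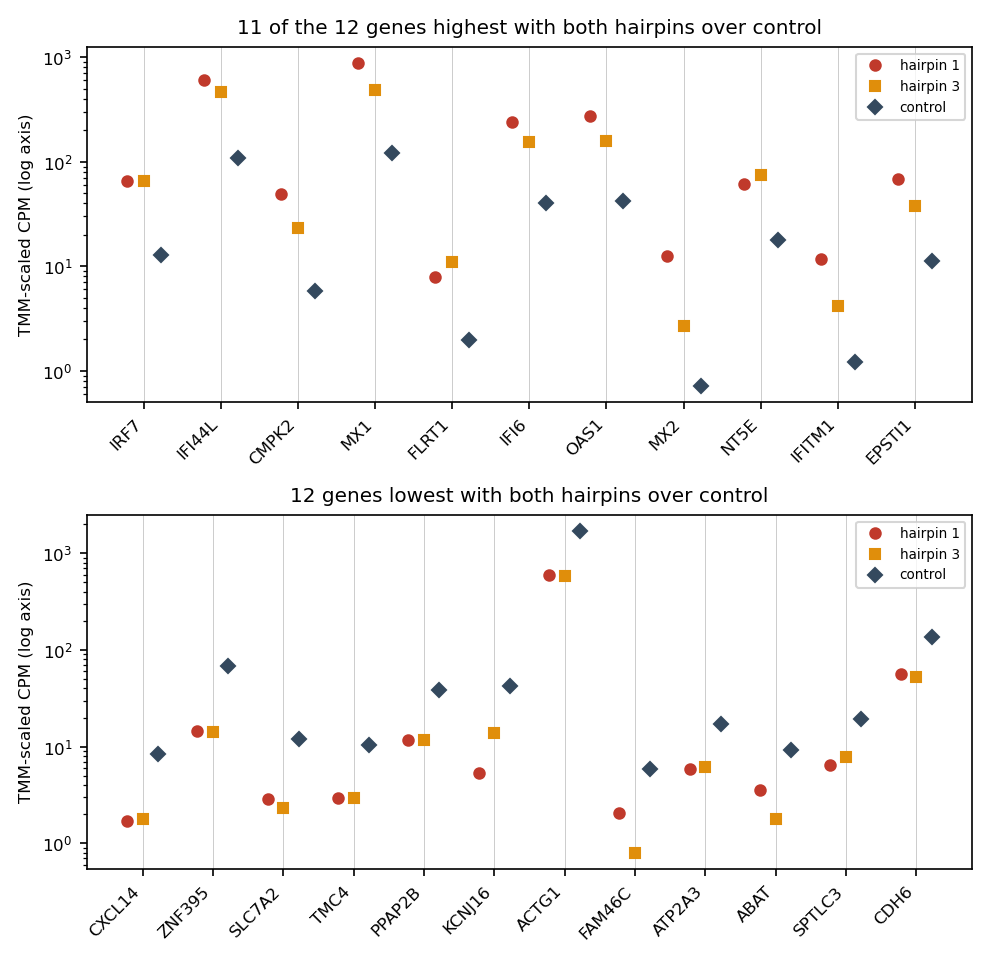
TMM-scaled CPM (log axis) with hairpin 1, with hairpin 3 and in the control for genes among the 12 with the largest smaller ratio upward and the 12 downward, at 5 CPM or more in an A-498 library (1 of the upward genes is not drawn). Each point is 1 library, and for MX1 the points stand at 879, 485 and 121 CPM.

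Transcripts of the interferons themselves were scarce but more frequent with both hairpins. IFNB1, which encodes interferon beta, had 71 counts with hairpin 1 and 73 with hairpin 3, against 10 in the control, or 8.84-fold (counting interval 4.53 to 19.2) and 7.44-fold (3.82 to 16.1) of the control CPM. IFNL1, which encodes the type III interferon lambda 1, had 26 and 69 counts, against 9. IFNL3 had 10 and 14 counts, against 1, with counting intervals of 1.77 to 540.1 and 2.17 to 603 on its ratios, and it has near-identical copies. All 3 were below 1 CPM in every library, and in 786-O they had 0 to 2 counts.

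The receptors and signal carriers of the pathway varied in their distance from the control. STAT2, which carries the interferon signal to the nucleus, stood at 183 CPM with hairpin 1 and 137 CPM with hairpin 3, against 91.7 CPM in the control. IRF9, the DNA-binding subunit of its complex, stood at 1.85 and 2.93 CPM, against 1.18 CPM. Both were higher with each hairpin than in the control, and IRF9 had the lower levels. IRF1, a related factor, stood at 92.8 and 83.9 CPM, against 46.2 CPM, whereas IRF3, which is switched on by phosphorylation rather than by amount, stood at 42.9 and 41.6 CPM, against 42.1 CPM. JAK1, a receptor kinase, was the other way, at 367 and 388 CPM, against 533 CPM. IRF1, IRF3 and JAK1 were chosen after their values were seen. The list of interferons, receptors and sensors had 21 tested genes. Of these, 12 were positive with both hairpins, beside 26.6% of all genes tested, and 4 negative with both, beside 29.2%. In either direction 0 were 2-fold with both.

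Antigen presentation genes of MHC class I were modestly higher. Of 20 tested, 15 were positive with both hairpins, beside 26.6% of all genes tested, and 2 negative with both, beside 29.2%. The median log2 ratios were 0.41 with hairpin 1 and 0.34 with hairpin 3, and 0 genes were 2-fold with both. NLRC5, the transactivator of these genes, stood at 68.5 CPM with hairpin 1 and 48.8 CPM with hairpin 3, against 26.7 CPM in the control. B2M, the common light chain, stood at 1826 and 2060 CPM, against 1689 CPM. NLRC5 thus stood further from the control than the light chain did.

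In A-498, chemokines and NF-kB genes were higher mainly with hairpin 1. Of 15 chemokines, 14 had a positive ratio with hairpin 1 and 8 with hairpin 3, beside 9721 and 9788 of all 20144 genes tested. The count with hairpin 3 was thus near the share of all genes. The median log2 ratios were 0.97 and 0.20. CXCL11, an interferon-induced attractant of T cells, stood at 26.5 CPM with hairpin 1 and 12.2 CPM with hairpin 3, against 4.33 CPM in the control. CXCL3, a neutrophil attractant, stood at 4.08 and 5.73 CPM, against 1.32 CPM, and CXCL2 at 25.5 and 39.8 CPM, against 13.4 CPM. CXCL1, another of that cluster, stood at 3.44 and 2.51 CPM, against 2.88 CPM. CXCL14, an attractant made by many epithelia, was the reverse, at 1.68 and 1.77 CPM, against 8.46 CPM, and it overlaps SLC25A48 on the other strand. CCL5 and CCL2, chosen after their values were seen, differed between the hairpins. CCL5 stood at 216 CPM with hairpin 1 and 44.3 CPM with hairpin 3, against 38.5 CPM in the control. CCL2 stood at 160 and 29.1 CPM, against 59.7 CPM, so its hairpin libraries lay on opposite sides of the control. In 786-O the chemokine medians were 1.23 with hairpin 1 and 1.14 with hairpin 3, with 12 and 10 members positive. There 3 chemokines were 2-fold higher with both hairpins, so the order seen in A-498 was not that of 786-O.

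Of 29 NF-kB genes, 26 were positive with hairpin 1 and 15 with hairpin 3, beside 9721 and 9788 of all 20144 genes tested. The count with hairpin 3 was thus near the share of all genes. The median log2 ratios were 0.54 and 0.07. NFKB1 stood at 94.97 CPM with hairpin 1 and 88.2 CPM with hairpin 3, against 65.0 CPM in the control, and NFKB2 at 210 and 188 CPM, against 133 CPM, while the subunit RELA stood at 57.2 and 37.3 CPM, against 47.01 CPM. No member was 2-fold with both hairpins in A-498. In 786-O the list medians were 0.68 with hairpin 1 and 0.41 with hairpin 3, with 28 and 22 members positive.

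ATF4 response genes, which cells switch on to restore amino acids under stress, were higher with both hairpins and more so with hairpin 3. Of 42 tested, 34 were positive with both, beside 26.6% of all genes tested, and 2 negative with both, beside 29.2%. At least 2-fold higher with both were 4, beside 0.628% of all genes. The median log2 ratios in A-498 were 0.46 and 1.06 for hairpins 1 and 3, and the medians for 786-O were -0.10 and 1.04. Hairpin 3 was above hairpin 1 in 34 of the 42, beside 48.6% of all genes tested, and the same 34 genes had that order in 786-O.

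CHAC1, which degrades glutathione, stood at 17.8 CPM with hairpin 1 and 35.9 CPM with hairpin 3, against 6.36 CPM in the control. SLC1A4, a transporter of neutral amino acids, stood at 22.9 and 27.4 CPM, against 10.2 CPM. SLC7A1, a transporter of cationic amino acids, stood at 118 and 116 CPM, against 57.3 CPM. The 2 transporters were thus near-equal with the hairpins. NUPR1, a stress-induced nuclear protein, stood at 114 and 113 CPM, against 52.6 CPM. ATF4 stood at 348 and 705 CPM, against 258 CPM, and DDIT3, the stress factor CHOP, at 17.2 and 27.8 CPM, against 11.2 CPM. ASNS, the asparagine synthetase, was chosen after its values were seen and stood at 150 and 352 CPM, against 83.0 CPM. DDIT3 overlaps MARS. Of the 20 genes of the unfolded protein response, 4 were positive with both hairpins, beside 26.6% of all genes tested, and 9 negative with both, beside 29.2%. Its leading member XBP1 stood at 109 and 138 CPM, against 77.7 CPM.

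Most genes of both sets belonged to no list, which held 36 of the 89 higher genes and 3 of the 52 lower genes. NT5E, the cell surface enzyme CD73 that makes adenosine, stood at 61.4 CPM with hairpin 1 and 74.6 CPM with hairpin 3, against 17.96 CPM in the control. FLRT1, a neuronal adhesion protein, stood at 7.90 and 11.1 CPM, against 1.98 CPM, and it lies within MACROD1 on the other strand. In both genes hairpin 3 gave the highest level. DYNLRB1, a dynein light chain, stood at 60.2 and 62.1 CPM, against 24.2 CPM.

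NT5E was 1 of 3 members of the list of YAP and TEAD targets that were 2-fold higher with both hairpins, beside 0.628% of all genes. ANKRD1, a muscle and stress-associated nuclear protein, stood at 4.55 CPM with hairpin 1 and 2.39 CPM with hairpin 3, against 1.09 CPM in the control. GADD45B, a stress-response gene, stood at 31.6 and 36.7 CPM, against 13.7 CPM. Of the 21 tested members, 13 were positive with both hairpins, beside 26.6% of all genes tested, and 4 negative with both, beside 29.2%. YAP1 itself stood at 74.4 and 86.9 CPM, against 95.2 CPM. KLF4, an immediate early transcription factor, stood at 97.6 and 135 CPM, against 48.2 CPM, and TNFSF10, the death ligand TRAIL, at 66.9 and 52.02 CPM, against 25.9 CPM.

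Among the genes lowest with both hairpins were transporters and channels. SLC7A2, a cationic amino acid transporter, stood at 2.87 CPM with hairpin 1 and 2.31 CPM with hairpin 3, against 11.9 CPM in the control. KCNJ16, an inward rectifier potassium channel of kidney tubules, stood at 5.37 and 13.9 CPM, against 42.8 CPM. TMC4, a transmembrane channel-like protein, stood at 2.95 and 2.91 CPM, against 10.3 CPM. TMC4 was nearly equal with the hairpins, whereas KCNJ16 was lowest with hairpin 1. ATP2A3, a calcium pump of the endoplasmic reticulum, stood at 5.83 and 6.10 CPM, against 16.95 CPM.

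Enzymes and structural genes were in the same set. PPAP2B, a lipid phosphate phosphatase, stood at 11.7 CPM with hairpin 1 and 11.7 CPM with hairpin 3, against 38.5 CPM in the control. SPTLC3, a subunit of serine palmitoyltransferase that starts sphingolipid synthesis, stood at 6.43 and 7.80 CPM, against 19.5 CPM. ABAT, the transaminase that degrades the transmitter GABA, stood at 3.52 and 1.77 CPM, against 9.21 CPM. FAM46C, a poly(A) polymerase, stood at 2.07 and 0.786 CPM, against 5.81 CPM. The first 2 of these were close to level between the hairpins. ACTG1, which encodes cytoplasmic gamma actin, stood at 593 and 588 CPM, against 1710 CPM, and it has near-identical copies, so its counts are uncertain.

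Renal tubule genes were lower mainly with hairpin 3. Of 22 tested, 14 were negative with both hairpins, beside 29.2% of all genes tested, and 2 positive with both, beside 26.6%. The median log2 ratios were -0.35 with hairpin 1 and -0.81 with hairpin 3. At least 2-fold lower with both were 2, beside 0.367% of all genes. CDH6, a cadherin of the proximal tubule, stood at 56.4 CPM with hairpin 1 and 52.7 CPM with hairpin 3, against 137 CPM in the control. SLC4A4, the tubular sodium bicarbonate cotransporter, stood at 94.9 and 82.0 CPM, against 215 CPM. HNF4A, a transcription factor of the tubule, stood at 15.7 and 8.78 CPM, against 25.98 CPM. CLDN2, a pore-forming claudin chosen after its values were seen, stood at 6.96 and 1.61 CPM, against 8.92 CPM. In 786-O the medians of the list were -0.26 and -1.28.

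**Figure D3:**
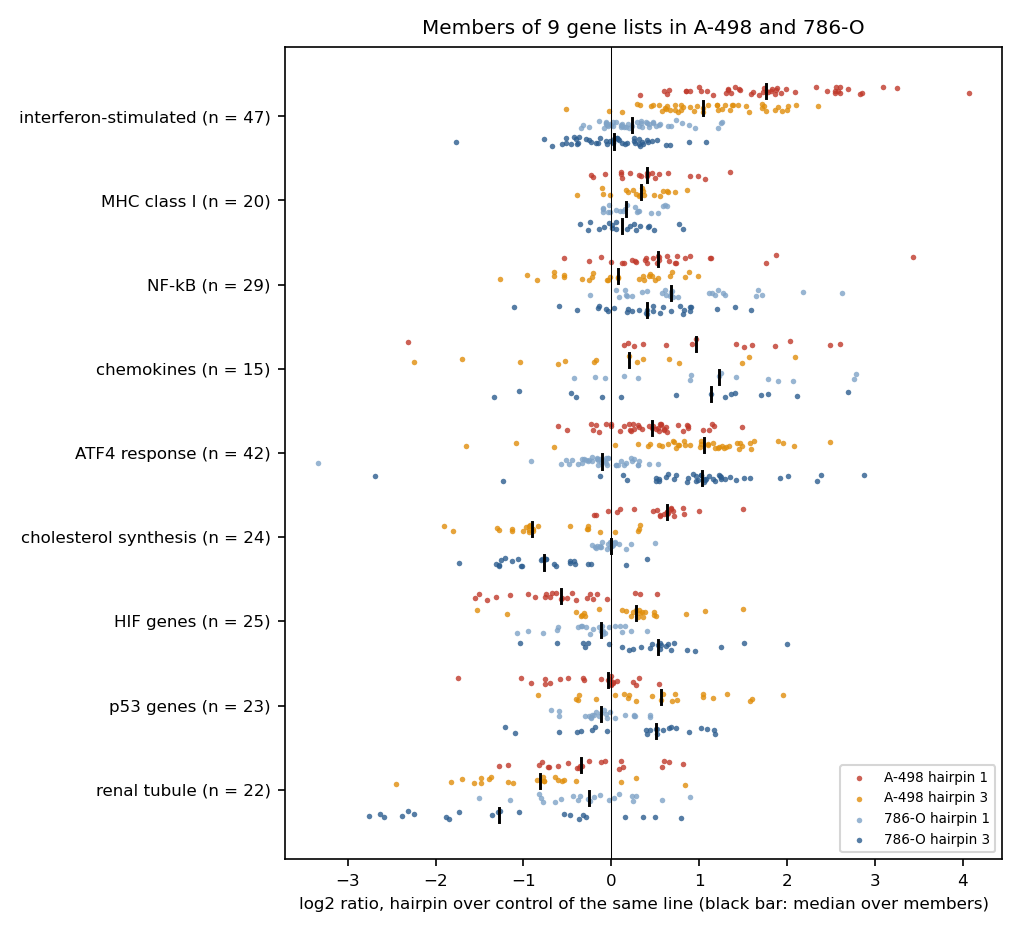
Log2 ratios to the control of the same line for the tested members of 9 gene lists, with hairpins 1 and 3 in A-498 above hairpins 1 and 3 in 786-O, and a black bar at the median. The interferon-stimulated medians are 1.76 and 1.05 in A-498 and 0.24 and 0.04 in 786-O, and the cholesterol medians lie on opposite sides of 0 in A-498.

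Several gene groups stood on opposite sides of the control with the 2 hairpins. Of 24 cholesterol synthesis genes, 19 were positive with hairpin 1 and negative with hairpin 3, beside 21.5% of all genes tested, and the median log2 ratio was 0.63 with hairpin 1 and -0.91 with hairpin 3. LSS, the lanosterol synthase, stood at 65.1 CPM with hairpin 1 and 12.2 CPM with hairpin 3, against 45.5 CPM in the control. HMGCS1, an early enzyme of the pathway, stood at 254 and 68.5 CPM, against 127 CPM. SREBF2, the factor that drives the pathway, stood at 147 and 68.1 CPM, against 137 CPM. LSS and HMGCS1 were chosen after their values were seen. Hairpin 1 was above hairpin 3 in 22 of the 24 in A-498, and in 21 of them in 786-O as well, where the medians over the control were -0.01 and -0.77.

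Genes regulated by hypoxia-inducible factors showed the reverse order. Of 25 tested, 14 were negative with hairpin 1 and positive with hairpin 3, beside 21.8% of all genes tested, with medians of -0.58 and 0.29. NDRG1, a stress-induced differentiation gene, was chosen after its values were seen and stood at 227 CPM with hairpin 1 and 872 CPM with hairpin 3, against 667 CPM in the control. EPAS1, which encodes HIF-2 alpha, stood at 78.4 and 208 CPM, against 115 CPM, so that the hairpins lay either side of the control. HIF1A, which encodes HIF-1 alpha, was lower with both, at 245 and 152 CPM, against 347 CPM, and ARNT, their shared partner, stood at 23.7 and 20.8 CPM, against 26.5 CPM.

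**Figure D4:**
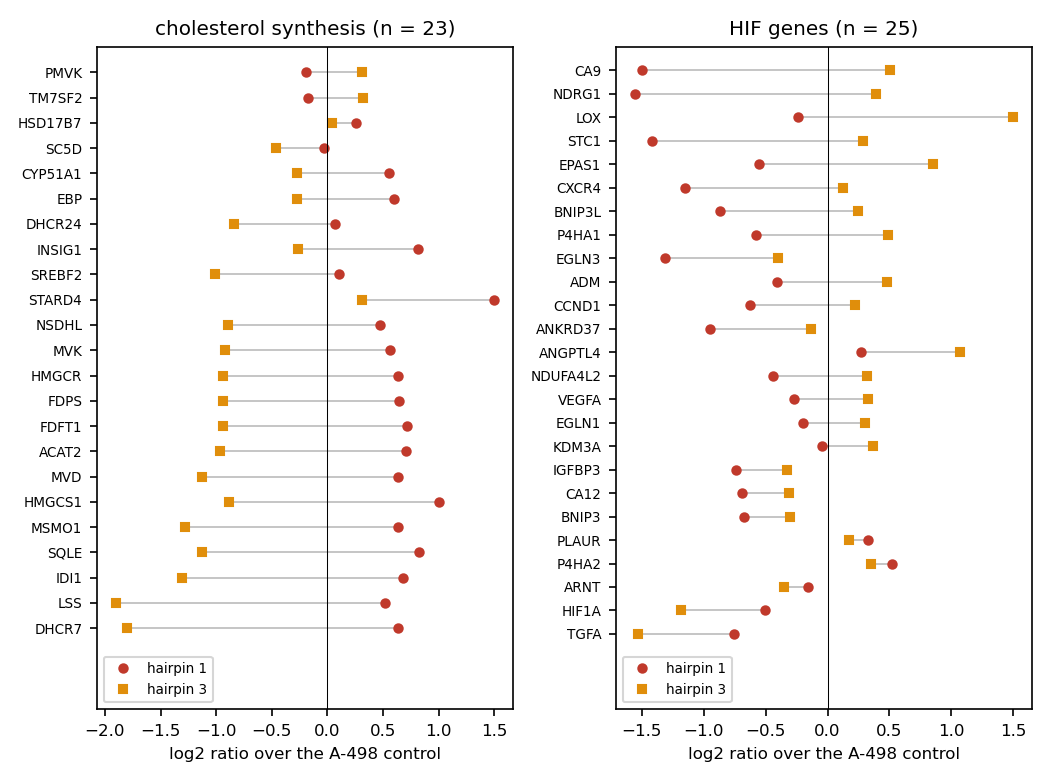
Log2 ratios to the A-498 control of each cholesterol synthesis gene (left) and each hypoxia-inducible factor gene (right), with hairpin 1 as circles and hairpin 3 as squares joined by a line (1 cholesterol gene is not drawn). The circle lies to the right of the square in all but 2 of the cholesterol genes drawn, and to the left in 20 of 25 hypoxia-inducible factor genes.

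Genes of the p53 response were near the control with hairpin 1 and higher with hairpin 3. Of 23 tested, 11 were negative with hairpin 1 and positive with hairpin 3, beside 21.8% of all genes tested, with medians of -0.03 and 0.56. MDM2, a ubiquitin ligase of the pathway, stood at 216 CPM with hairpin 1 and 250 CPM with hairpin 3, against 217 CPM in the control. BTG2, an antiproliferative gene chosen after its values were seen, stood at 72.9 and 307 CPM, against 79.4 CPM. CDKN1A, the cell cycle inhibitor p21, also chosen so, went against the list, at 371 and 291 CPM, against 520 CPM.

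The 10 single genes with the strongest opposition had levels of 5 CPM or more in some A-498 library. MCAM, an adhesion molecule, stood at 5.04 CPM with hairpin 1 and 0.235 CPM with hairpin 3, against 1.83 CPM in the control. IL11, a cytokine of the interleukin-6 family, stood at 8.41 and 0.746 CPM, against 2.07 CPM. NKAIN4, RGS22 and SPOCD1 had the same order. INPP5D, the phosphatase SHIP1 of blood cells, was the reverse at 0.786 and 16.3 CPM, against 2.91 CPM, and so were KANK3, ALOX5 and CYGB. ALOX5, the lipoxygenase that starts leukotriene synthesis, stood at 1.07 and 7.14 CPM, against 3.15 CPM. Such genes fail the requirement of the same direction with both hairpins and were not counted among the 141.

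The remaining lists had 0 or 1 member that was 2-fold with both hairpins. Proliferation genes (31 tested) had median log2 ratios of 0.24 with hairpin 1 and -0.03 with hairpin 3. MYC stood at 115 CPM with hairpin 1 and 140 CPM with hairpin 3, against 98.3 CPM in the control, and E2F1, which drives entry into S phase, at 34.6 and 11.5 CPM, against 25.6 CPM. Glycolysis genes (24) had medians of -0.00 and -0.14, and the glucose transporter SLC2A3 stood at 35.99 and 153 CPM, against 42.8 CPM. The 13 genes of mitochondrial DNA had medians of -0.23 and -0.13, and 8 were negative with both, beside 29.2% of all genes. Of 56 nuclear genes of the respiratory chain, 25 were negative with both, beside 29.2% of all genes. NRF2 genes (22) had medians of -0.12 and -0.09, with NFE2L2, the factor itself, at 257 and 250 CPM, against 226 CPM. Matrix and mesenchymal genes (31) had medians of 0.07 and -0.16, and SNAI1, a repressor of epithelial genes, stood at 29.8 and 20.3 CPM, against 33.2 CPM. Lysosome and autophagy genes (26) had medians of -0.05 and -0.04.

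The 786-O libraries share no sample with the A-498 ratios and so give a second reading of the genes picked in A-498. Of the 89 genes higher with both A-498 hairpins, 58 were positive with both 786-O hairpins (65.2%, 95% exact binomial interval 54.3 to 75.0), beside 29.5% of all 14163 genes. Of the 52 lower genes, 42 were negative with both (80.8%, 67.5 to 90.4), beside 27.7%. The intervals treat genes as independent, which they are not, and the same 2 hairpins were used in both lines. At least 2-fold the same way with both 786-O hairpins were 6 of the 89 (6.74%) and 7 of the 52 (13.5%), beside 0.254% and 0.198% of all genes. Low expression limits this reading, because 63 of the 89 and 32 of the 52 reached 1 CPM in a 786-O library.

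The genes that were 2-fold higher in both lines were HMGA2, DYNLRB1, CXCL3, ANKRD1, RP11-7F17.7 and AC005077.14. HMGA2, an architectural chromatin protein of embryonic and tumour cells, stood at 61.4 CPM with hairpin 1 and 85.5 CPM with hairpin 3, against 26.5 CPM in the A-498 control, and at 50.2 and 65.4 CPM, against 21.8 CPM, in 786-O. DYNLRB1 in 786-O stood at 135 and 134 CPM, against 49.8 CPM. The pair was thus higher by similar ratios in the 2 lines. HMGA2 overlaps other annotated genes.

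The genes that were 2-fold lower in both lines were ZNF395, SLC7A2, FGFR3, RIMS3, SLC23A1, KREMEN1 and HHIPL2. FGFR3, a fibroblast growth factor receptor, stood at 6.43 CPM with hairpin 1 and 5.94 CPM with hairpin 3, against 14.03 CPM in the A-498 control, and at 10.3 and 7.10 CPM, against 30.8 CPM, in 786-O. KREMEN1, a receptor for the Wnt inhibitor Dickkopf, stood at 4.49 and 9.87 CPM, against 23.7 CPM, in A-498 and at 5.76 and 13.4 CPM, against 28.7 CPM, in 786-O. KREMEN1 was lowest with hairpin 1 in both lines, and it overlaps other annotated genes.

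In the interferon-stimulated list, 24 members were 2-fold higher with both A-498 hairpins. Of these, 13 were positive with both 786-O hairpins (54.2%), beside 29.5% of all genes, and 0 were 2-fold with both. Of the 65 higher genes outside the list, 45 were positive (69.2%) and 6 were 2-fold. Those 65 still include interferon-induced genes such as CXCL11, and the difference between the 2 sets was not tested. MX1 stood at 3.34 CPM with hairpin 1 and 2.14 CPM with hairpin 3, against 2.62 CPM in the 786-O control, far below its level in the A-498 control. The summed CPM of the list in 786-O was 3212 and 2665, against 3053. The difference between the lines was tested in edgeR and called 0 of 20144 genes (0%), with 159 at an unadjusted p under 0.05, and DESeq2 and limma-voom also called 0. For IRF7 it was 2.12 log2 units with an adjusted p of 1 in edgeR, so a difference between the lines was not called for any interferon-stimulated gene.

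**Figure D5:**
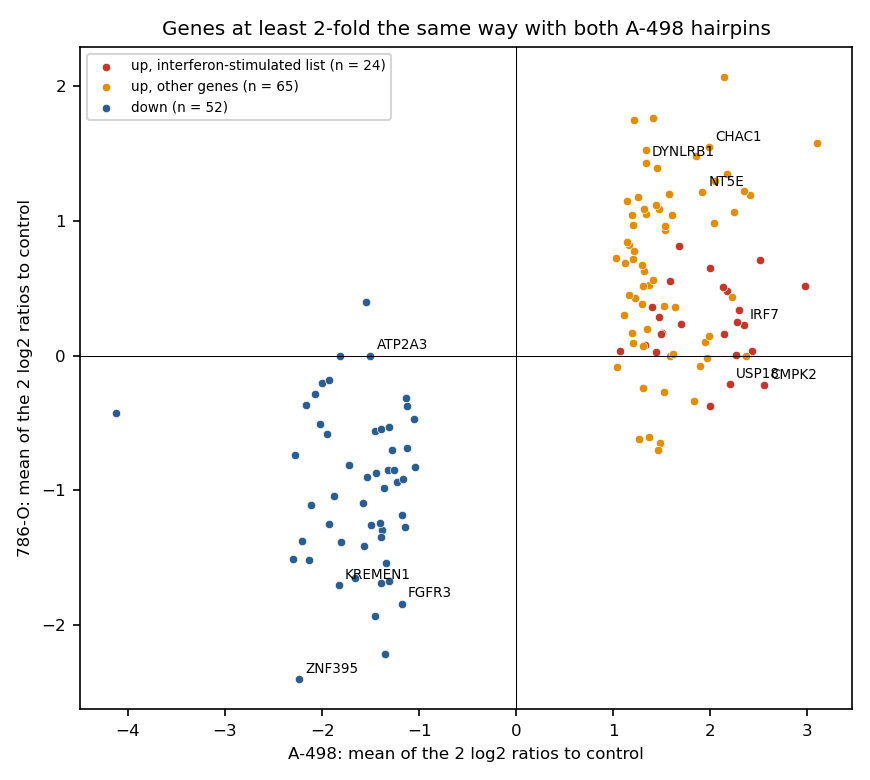
Mean of the 2 log2 ratios in A-498 (horizontal axis) and in 786-O (vertical axis) for the 89 genes at least 2-fold higher and the 52 at least 2-fold lower with both A-498 hairpins. Of the lower genes 42 were negative with both 786-O hairpins, and of the 24 higher genes in the interferon-stimulated list 13 were positive with both.

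Both control libraries had a few counts of genes that are abundant in the other line. Over 8 genes picked for at least 50 CPM in the 786-O control and no counts in either A-498 hairpin library, the A-498 control held a median of 0.0667% of the 786-O control level (range 0.0467 to 0.0893). Over 4 genes picked in the same way for the reverse, the 786-O control held 0.159% of the A-498 control level (0.109 to 0.221). The absence from the hairpin libraries was part of how these genes were picked, and the source of the counts was not tested. GSTP1, a glutathione transferase, had 0 and 0 counts with the hairpins and 17 in the control, beside 17773 in the 786-O control. Taking 0.0667% of the 786-O control level off the A-498 control left the same 89 and 52 genes. The difference between lines had its smallest p-values mostly for genes almost unexpressed in 1 of the lines. Examples were FBLN1, AKR1C2, KCTD15 and PHGDH upward and GSTP1, MAGI2-AS3, SLC17A9, NDN and MT1E downward. The 6 leading upward genes also included IRF7 and IFI6, with unadjusted p-values of 0.00143 and 0.00320 in edgeR. Both were expressed in the 2 lines, and in the 786-O libraries IRF7 stood at 3.65 to 4.37 CPM and IFI6 at 23.2 to 24.96 CPM.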

How the data were processed

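RNA was measured in 6 libraries, 1 for each line and construct, prepared as stranded total RNA per the labels' protocols. The authors deposited raw counts of reads for 32357 gene symbols, per the file headers. The submitters' processing notes name STAR, DESeq2 and the hg19 and hs37d5 builds. How strand was handled, the counter, the gene annotation and the hairpin sequences are not stated there or in the labels. The deposited table also holds, per the file headers, a mean signal, a log2 fold change, a Wald score and a p-value for all 6 libraries together, which were not used for any result.

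The main test was the quasi-likelihood F test of edgeR 4.0.16 (R 4.3.3) after TMM scaling, with Benjamini-Hochberg adjustment over the 20144 genes that passed its expression filter. The model had 4 means, for control and knockdown in each line, and 2 residual degrees of freedom, and SEs came from the F values. Ratios per hairpin are differences of log2 CPM with a prior count of 2, and "2-fold with both" requires both ratios past 2-fold and 1 CPM in at least 1 A-498 library. The alternatives were other scalings, filters, floors and folds, leaving out each library but the A-498 control (without which there is no A-498 ratio), DESeq2 1.42.0 and limma 3.58.1 (voom). At 77534125 to 99147218 counts per library, counting error is small for genes above 1 CPM, but intervals cover counting error only.

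The hairpin number is the replicate number in the labels, so the same reagent was used in both lines. The difference of hairpin 3 minus hairpin 1 correlated between the lines across 11027 genes (Pearson r 0.577, Spearman rho 0.556), as a description, and the hairpin was also fitted as a block. On simulated counts for 20144 genes in the A-498 comparison, at a dispersion of 0.0835 (the median of the real data), 2% of 2-fold, 56% of 4-fold and 94% of 8-fold changes were recovered.

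The libraries, the 27 gene lists and the tests were chosen with earlier results of these data known. Named genes were ZNF395, the 12 with the largest smaller ratio in each direction, the 5 with the smallest p in each direction, the 6 in each direction for the difference between lines, the 5 most opposed each way, and per list the first 3 members and those 2-fold with both. Genes on the Y chromosome and XIST were left out of naming. Some genes that the rule names are not reported here. Genes with near-identical copies or overlapping neighbours are uncertain. The labels name no batch or date, and no within-batch value could be computed.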

Additional observations from a re-analysis of the deposited data

Results flagged for a closer look

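Among the genes at least 2-fold the same way with both A-498 hairpins that also reached 1 CPM in 786-O, USP18 alone had both 786-O ratios of the opposite sign. A further 4 higher genes and 1 lower gene had opposite signs but stayed below 1 CPM in 786-O. In A-498, hairpins 1 and 3 gave log2 ratios of 2.83 and 1.57 to the control, and in 786-O they gave -0.05 and -0.37. The difference between the lines was 2.54 log2 units (SE 0.752, unadjusted p 0.0150, adjusted p 1 in edgeR), so it did not pass the threshold. In 786-O USP18 stood at 15.3 CPM with hairpin 1 and 12.3 CPM with hairpin 3, against 15.8 CPM in the control, so those libraries lay close together.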

How the results depend on the processing

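The count of 0 called genes in A-498 held with RLE scaling, library totals, no filter, limma-voom, the A-498 libraries alone and each library but the A-498 control left out in turn, where unadjusted p-values under 0.05 numbered 315 to 728. With the hairpin as a replicate block, 9 genes were called higher and 2 lower, and DESeq2 called 15 and 8. ZNF395 passed in the block fit (-2.22, adjusted p 0.0303) and in DESeq2 (-2.24, adjusted p 0.00430). The 2-fold counts depended on the limits: with no CPM floor 190 genes were higher and 139 lower, at a floor of 5 CPM 59 and 28, at 1.5-fold 304 and 278, and at 4-fold 4 and 4. With 1 hairpin left out, the higher genes numbered 321 to 396 and the lower genes 260 to 712. The shares followed in 786-O were 53.2% and 65.5% with no floor and 50% and 100% at 4-fold. Library totals in place of TMM shared 89 of the higher and 47 of the lower genes. The summary shift of the ratios was 0.03 log2 units with hairpin 1 and 0.05 with hairpin 3, and single lists moved by somewhat different amounts. The interferon-stimulated medians, for example, were 1.80 and 1.10 with library totals. With library totals 5 list medians near 0 changed sign: glycolysis (0.04) and p53 genes (0.01) with hairpin 1, and proliferation (0.03), lysosome (0.02) and renal carcinoma markers (0.04) with hairpin 3. A prior count of 0.5 moved the endothelial median with hairpin 1 to 0.84 and the smaller ratios of IFNB1 and IFNL1 to 2.82 and 1.78. No value of a named gene changed sign under any setting run. A correction that takes 0.0667% of the 786-O control level off the A-498 control, chosen after seeing the data, kept all 89 and 52 and turned the glycolysis median with hairpin 1 to 0.00068. Levels below 1 CPM and the lone control limit every ratio. The cause of these changes was not tested beyond what each setting alters by construction.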
